A study of Mus musculus with 16 samples.

Results

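The neurotrophin and GDNF family receptors and ligands described here were 9 of the 49671 genes in the count tables of single cells from mouse dorsal root ganglia. They were taken by name and not by a cutoff on a measured value, but with earlier results of these data known. They comprised the neurotrophin receptors *Ntrk2*, *Ntrk3* and *Ngfr*, the GDNF family receptor *Ret* with its co-receptors *Gfra1*, *Gfra2* and *Gfra3*, and the neurotrophins *Bdnf* and *Ntf3*, each with a single Ensembl identifier. In GENCODE's annotation of GRCm38 all 9 are protein-coding, and they lie on 8 chromosomes, *Ntrk3* on chromosome 7 from 78175959 to 78738012, *Ntrk2* on chromosome 13 from 58806569 to 59133970, and *Ret* and *Ntf3* both on chromosome 6.

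Cells of embryonic day 15.5 (e15.5) came from PvtdTom mice, in which the parvalbumin promoter drives the red protein tdTomato, and filled 10 libraries of 96 wells. Cells of postnatal day 1 (p1) came from mice labelled Trpv1Cre; PvFlp; Ai65 or PvCre; Ai14, in which tdTomato is expressed where the recombinases have been active, and filled 6 libraries of 96 wells. The recombinases are under the *Trpv1* and parvalbumin promoters, so that the Ai65 allele marks only cells in which both were active at some time. All wells were filled with tdTomato-positive cells, by fluorescence-activated sorting in the labels and, for p1, by manual picking in the methods of the study. The labels do not say which p1 library came from which line or any library from which segments, and they name no animals. Age therefore cannot be told apart from mouse line, isolation and library preparation, and p-values measure the spread between libraries, which may in part be technical.

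Neurotrophins signal through receptor tyrosine kinases, TrkB (*Ntrk2*) for BDNF and TrkC (*Ntrk3*) for NT-3, which the low-affinity receptor p75 (*Ngfr*) accompanies. Ligands of the GDNF family bind a co-receptor anchored in the membrane, GFRα1 for GDNF, GFRα2 for neurturin and GFRα3 for artemin, and the complex activates the kinase RET. In dorsal root ganglia TrkC is known as the receptor of proprioceptors, the sensory neurons of muscle, which need NT-3 to survive, while TrkB and RET mark groups of low-threshold mechanoreceptors and RET also a large group of nociceptors.

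Of the wells, 871 of 960 at e15.5 and 369 of 576 at p1 held at least 10000 UMIs (unique molecular identifiers, each standing for 1 captured transcript) and were used. They were classed by marker genes that included none of the 9. Proprioceptor-like wells, with the neuron markers and with *Pvalb*, *Runx3* and *Etv1*, numbered 274 at e15.5 and 277 at p1, other sensory-neuron-like wells 38 and 4, connective-tissue-like wells 383 and 2, and proprioceptor-like wells that also held glial transcripts 61 and 77. At e15.5, wells with connective-tissue genes were thus more numerous than proprioceptor-like wells, against the label of the samples. Proprioceptor-like wells had a median of 117112 UMIs at e15.5 and 55969 at p1. Library totals ranged from 3701900 to 9299431 UMIs at e15.5 and from 386517 to 8814472 at p1, where library 3 stood apart with a median of 1409 UMIs per well and contributed 8 proprioceptor-like wells. In the proprioceptor-like wells the 3 proprioceptor markers summed to between 2610 and 3112 CPM (UMIs of a gene scaled to a common total of UMIs) in the e15.5 libraries and between 2369 and 3481 CPM in the p1 libraries, and the 7 glial markers to between 13.5 and 27.7 CPM and between 22.4 and 71.4 CPM. The 6 nociceptor markers summed to between 36.0 and 228 CPM at e15.5 and between 24.6 and 181 CPM at p1, and the 8 connective-tissue markers to between 19.6 and 391 CPM and between 27.1 and 180 CPM. No well had counts identical to another.

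The promoters of *Ntrk2* and *Gfra1* are shown because both genes were called lower in e15.5 proprioceptor-like wells than in other sensory-neuron-like and connective-tissue-like wells, as given below. As background, RUNX3, whose gene was among the markers that define the proprioceptor-like class, is known to hold down *Ntrk2* in developing proprioceptors, and RUNX factors bind the core TGTGGT. The sequences are from RefSeq on GRCm38.p6 and run from 250 bases before the annotated start of transcription to 50 bases after it, 5′ to 3′ on the strand of the gene, *Ntrk2* at chr13:58806319-58806618 on the plus strand and *Gfra1* at chr19:58455349-58455648 on the minus strand. Capitals mark a match to TGTGGT, searched on both strands.
Ntrk2: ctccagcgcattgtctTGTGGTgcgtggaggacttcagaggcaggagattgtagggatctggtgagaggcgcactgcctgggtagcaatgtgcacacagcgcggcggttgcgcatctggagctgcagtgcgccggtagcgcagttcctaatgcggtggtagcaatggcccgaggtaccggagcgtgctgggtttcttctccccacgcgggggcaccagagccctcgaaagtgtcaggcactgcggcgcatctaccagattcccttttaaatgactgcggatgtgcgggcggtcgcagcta
Gfra1: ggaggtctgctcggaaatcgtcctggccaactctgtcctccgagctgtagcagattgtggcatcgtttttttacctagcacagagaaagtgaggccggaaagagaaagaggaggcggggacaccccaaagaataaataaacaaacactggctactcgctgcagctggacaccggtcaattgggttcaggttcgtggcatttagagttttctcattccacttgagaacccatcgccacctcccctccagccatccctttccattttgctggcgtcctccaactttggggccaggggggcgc
The match in the *Ntrk2* promoter started at position -234 from the start of transcription. Promoters were at hand for 5 of the 9 genes (*Ntrk2*, *Ngfr*, *Gfra1*, *Bdnf* and *Ntf3*), 12 in all counting alternative starts, and 1 of the 12 held the letters. Of all 32851 promoters of this length 16.8% held them, so a match by itself is a common event, and it was not tested as a binding site.

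In proprioceptor-like wells of e15.5, *Ntrk3* and *Ngfr* were present in nearly every cell, *Gfra3* and *Bdnf* in most cells at low levels, and *Ntrk2*, *Ret*, *Gfra1*, *Gfra2* and *Ntf3* in a minority. By p1 *Gfra2* and *Bdnf* had risen, *Gfra3* had fallen steeply, and *Ntrk3* and *Ngfr* had fallen modestly. The summed markers of mechanoreceptors (*Maf*, *Mafa* and *Calb2*) also differed, at 6.30 to 29.5 CPM in the e15.5 libraries and 52.2 to 131 CPM in the p1 libraries. The difference rested on *Maf*, at 12.5 CPM over all wells of e15.5 and 97.5 CPM over those of p1. *Mafa* (0 and 4 UMIs) and *Calb2* (3 and 7 UMIs) were nearly absent. *Maf* was not particular to mechanoreceptors, with 138 and 161 CPM in wells with glial transcripts and 336 CPM in connective-tissue-like wells of e15.5. The part of these markers in the changes of the 9 genes was not tested. CEL-Seq2 counts 3′ ends, so that CPM values are not divided by transcript length and are compared here between samples rather than between genes. The test of age was edgeR's quasi-likelihood test on UMIs summed per library (10 against 6 libraries), with Benjamini-Hochberg adjustment over 12622 genes, of which 62.8% were called. Of the 9 genes 6 passed the filter on low counts and 5 of these were called, 2 of 6 higher (background 30.9%) and 3 of 6 lower (background 32.0%) at p1, so the count itself is near that of all genes and the sizes and values carry the description.

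**Figure D1:**
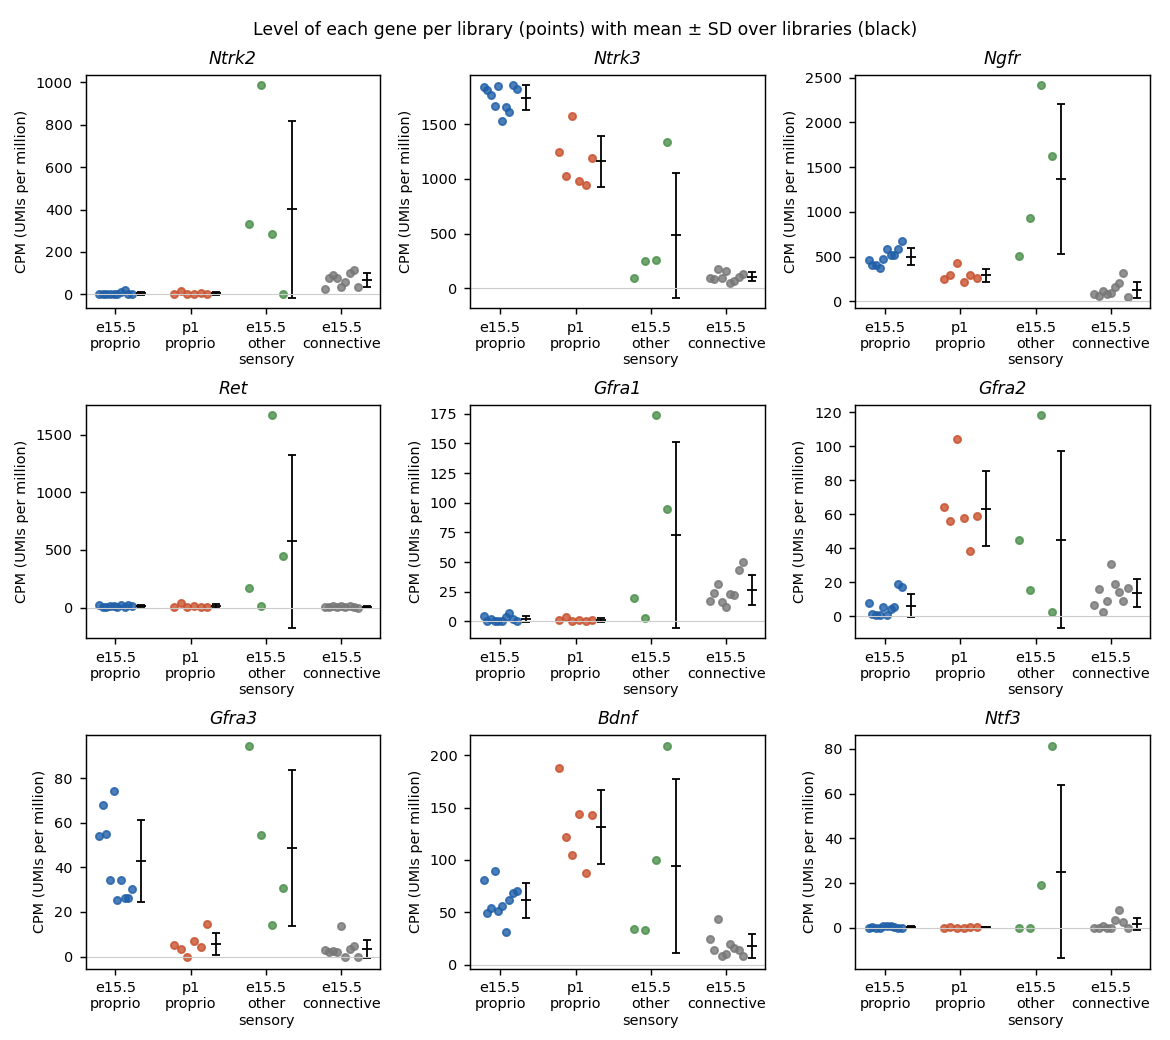
Level of each of the 9 genes in CPM (linear axes, one point per library with at least 5 wells of the class) in proprioceptor-like wells of e15.5 (10 libraries) and p1 (6 libraries) and in other sensory-neuron-like (4 libraries) and connective-tissue-like wells (9 libraries) of e15.5, with the mean and SD over libraries in black. *Gfra2* and *Gfra3* do not overlap between the ages, and *Ntrk2*, *Ret* and *Gfra1* lie near 0 in proprioceptor-like wells of both ages while single libraries of other sensory-neuron-like wells reach 987, 1667 and 174 CPM.

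Among the neurotrophin receptors, *Ntrk3* had its lowest library at 1531 CPM, its median at 1795 and its highest at 1856 in e15.5 proprioceptor-like wells (1742 ± 116 CPM, SD, n = 10). At p1 the lowest was 948, the median 1111 and the highest 1573 CPM (1161 ± 233, SD, n = 6). The highest p1 library was the shallow library 3 and the only one of the 6 that reached into the e15.5 range. *Ntrk3* was lower by 0.37 ± 0.09 on the log2 scale (log2 fold change -0.37, SE 0.09, edgeR adjusted p = 0.00159), and by 0.45 without library 3 (log2 fold change -0.45).
*Ngfr* ranged from 372 through a median of 494 to 675 CPM at e15.5 and from 215 through 281 to 425 CPM at p1, again with library 3 as the highest and as the only p1 library inside the e15.5 range. Its log2 fold change was -0.60 ± 0.13 (SE, edgeR adjusted p = 0.000651), and -0.67 without library 3.
*Ntrk2*, the TrkB gene, was near 0 at both ages. The e15.5 libraries ran from 0 through a median of 1.57 to 22.1 CPM, and the p1 libraries from 0 through 3.15 to 17.4 CPM, which was too low to enter the test. The highest values rested on single wells: 2 of the 274 wells at e15.5 and 3 of the 277 at p1 held *Ntrk2* at 100 CPM or more. The 10% of e15.5 wells with the most *Ntrk2* carried 98.6% of its level summed over wells. Few wells held any *Ntrk2*, and 32 wells of e15.5 held it with *Ntrk3*, so this share follows largely from its scarcity.

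For the GDNF family, the co-receptors of neurturin and artemin changed in opposite directions. *Gfra2* ran from 0.752 through a median of 4.71 to 19.1 CPM in the e15.5 libraries and from 38.1 through 58.5 to 104 CPM in the p1 libraries, and the groups did not overlap. Its log2 fold change was 3.09 ± 0.38 (SE, edgeR adjusted p = 7.26e-07), the largest among the 6 genes tested. The highest e15.5 values, 17.1 and 19.1 CPM, were those of libraries 10 and 9, which held the fewest connective-tissue-like wells after removal of shallow wells (5 and 2), and the highest p1 value was again that of library 3.
Because glial markers were also higher in the p1 libraries, the wells with glial transcripts are given beside it: there *Gfra2* was 33.4 ± 13.4 CPM at e15.5 (SD, n = 6) and 63.4 ± 9.17 CPM at p1 (n = 5). At e15.5 *Gfra2* was higher with than without glial transcripts (log2 fold change 2.02 ± 0.56, edgeR adjusted p = 0.0141, 12996 genes tested of which 9.69% were called, 8.79% higher), a call that was lost without library 3 or 8 (adjusted p = 0.0522 and 0.0816). At p1 no such difference was called (0.11 ± 0.19, background 2.19%). The part of glial transcripts in the change with age was not tested.
*Gfra3* ran from 25.6 through a median of 34.2 to 74.4 CPM at e15.5 and from 0 through 4.65 to 14.5 CPM at p1, without overlap. Its log2 fold change was -2.53 ± 0.35 (SE, edgeR adjusted p = 3.00e-06). The e15.5 libraries were spread widely among themselves, with the 4 values above 50 CPM in libraries 1, 2, 3 and 5.
*Ret*, the kinase that both co-receptors use, did not pass the threshold (0.53 ± 0.50, adjusted p = 0.364). Its e15.5 libraries ran from 1.5 through 11.5 to 26.5 CPM and its p1 libraries from 6.09 through 7.95 to 40.9 CPM, and without p1 library 2, the highest, the sign of the change turned (log2 fold change -0.34). *Gfra1*, the GDNF co-receptor, reached at most 7.43 CPM in an e15.5 library and 3.91 CPM in a p1 library and was not tested.

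*Bdnf*, the ligand of TrkB, ran from 30.9 through a median of 59.3 to 89.6 CPM in the e15.5 libraries and from 87.1 through 132 to 187 CPM in the p1 libraries. The groups overlapped only in the highest e15.5 and the lowest p1 library. The log2 fold change was 1.38 ± 0.18 (SE, edgeR adjusted p = 1.11e-06). *Ntf3*, the ligand of TrkC, was at most 0.814 CPM in any library of proprioceptor-like wells, with 8 UMIs in all 274 wells of e15.5 and 6 in all 277 wells of p1.
Other ligands of both families on the list of 53 pathway genes were as scarce in proprioceptor-like wells. *Ntf5*, *Gdnf*, *Nrtn*, *Artn* and *Pspn* each averaged under 1 CPM at both ages, *Nrtn* (neurturin) reaching 0.273 CPM at e15.5 and 0.547 CPM at p1. In connective-tissue-like wells of e15.5 *Nrtn* was 5.47 ± 4.61 CPM (SD, n = 9) and *Gdnf* 1.11 ± 1.32 CPM.

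**Figure D2:**
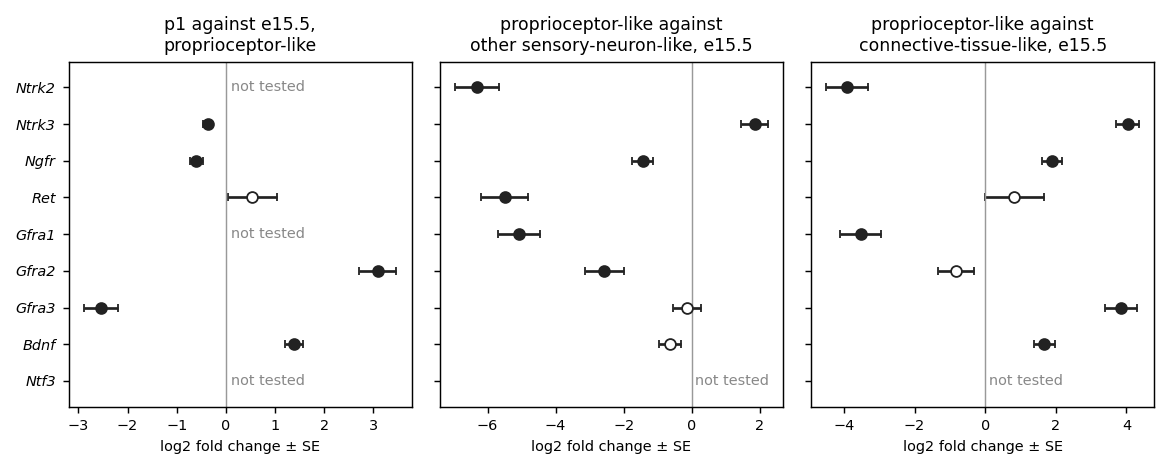
Log2 fold change with its SE for the 9 genes in 3 comparisons by edgeR on sums per library: p1 against e15.5 in proprioceptor-like wells, and e15.5 proprioceptor-like wells against other sensory-neuron-like and against connective-tissue-like wells. Filled points passed an adjusted p of 0.05, open points did not, and genes marked as not tested were below the filter on low counts; *Ntrk3* is to the right of 0 in both class comparisons and *Ntrk2* and *Gfra1* far to the left.

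Of the 53 further pathway genes 40 were tested between the ages, of which 12 were higher and 12 lower at p1, which is near the 30.9% and 32.0% of all genes, with a median log2 fold change of -0.06 beside -0.03 over all genes. The receptor *Gfra4*, the persephin co-receptor, was lower (log2 fold change -0.61 ± 0.20, adjusted p = 0.0121, 26.1 ± 5.32 CPM at e15.5 and 20.8 ± 19.2 CPM at p1), with a p1 mean that rested on library 3 at 59.6 CPM against a median of 14.2. *Sort1*, the sortilin that pairs with p75, was slightly higher (0.28 ± 0.08, adjusted p = 0.00493). Among the feedback genes of receptor tyrosine kinase signalling, the phosphatase *Dusp5* (3.16 ± 0.21) and the Sprouty genes *Spry1* (1.98 ± 0.28) and *Spry2* (1.32 ± 0.20) were higher at p1, while *Spry4* was lower (-1.41 ± 0.50, adjusted p = 0.0181). *Sorcs1*, a sortilin relative (1.18 ± 0.15), and the adaptor *Frs3* (1.04 ± 0.20) completed the 5 largest increases. With *Spry4*, the 5 largest decreases were those of the adaptors *Dok5* (-2.35 ± 0.41), *Sh2b2* (-1.11 ± 0.31) and *Shc2* (-1.11 ± 0.11) and of *Sdc3* (-1.17 ± 0.13), a syndecan to which GDNF family ligands bind.

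The same changes were examined as shares of cells, after every well had been thinned to 10000 UMIs, since the ages differed in depth. Wells with a UMI of *Ntrk3* made up 98.4% ± 2.86 of proprioceptor-like wells at e15.5 (mean of library shares, SD, n = 10) and 99.0% ± 1.51 at p1 (n = 6). *Ngfr* was found in 97.8% ± 3.07 and in 79.8% ± 13.4 of wells, a decrease of 18.0 percentage points (difference -18.0, exact two-sided permutation test over libraries, p = 0.0035). *Gfra2* went from 5.99% ± 4.64 to 44.3% ± 16.0 (exact permutation p = 0.00025, the smallest that 8008 splits allow), and *Gfra3* from 33.9% ± 16.0 to 5.13% ± 4.81 (exact permutation p = 0.00025). *Bdnf* went from 38.9% ± 8.33 to 60.5% ± 10.6 (exact permutation p = 0.0015).
*Ntrk2* was found in 1.27% ± 2.71 and 5.27% ± 4.24 of wells (exact permutation p = 0.0485). This difference of 4.01 percentage points was not stable: it was 1.51 with a second seed of the thinning (exact permutation p = 0.526), 0.234 when 2 UMIs were required (exact permutation p = 0.929) and 5.07 at 20000 UMIs (exact permutation p = 0.108), and it no longer passed 0.05 without p1 library 1, 2, 5 or 6 or without any e15.5 library other than library 8. *Ret* (10.5% ± 5.26 and 6.18% ± 7.03, exact permutation p = 0.182, p = 0.0147 without p1 library 2), *Gfra1* (3.16% ± 5.52 and 1.02% ± 1.86, p = 0.462 by the exact test) and *Ntf3* (0.455% ± 1.44 and 0 of 277 wells after thinning, although these wells held 6 UMIs before it, p = 1 by the exact test) did not pass 0.05. These 9 tests are given without adjustment for their number, so that a value just under 0.05, such as that of *Ntrk2*, carries little weight.
For comparison, connective-tissue-like wells of e15.5 thinned in the same way (383 wells, median depth 28270 UMIs) held *Gfra3* in 3.66%, *Gfra2* in 8.09%, *Ret* in 7.57% and *Bdnf* in 10.2% of wells. *Ntrk3* was found in 46.7% and *Ngfr* in 47.0% of the same wells. These wells hold cells of another kind with expression of their own, so their shares do not measure noise. The e15.5 shares of *Gfra2* and *Ret* in proprioceptor-like wells lay near theirs, whereas the p1 share of *Gfra2* and the e15.5 share of *Gfra3* lay well above. *Ntrk2* and *Gfra1* were found more often in the connective-tissue-like wells (31.1% and 17.8%) than in proprioceptor-like wells.

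**Figure D3:**
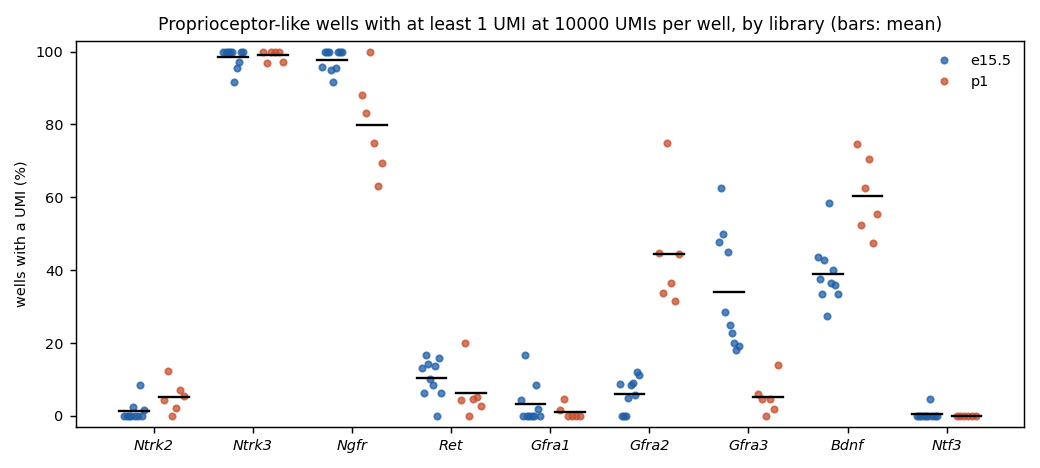
Share of proprioceptor-like wells with at least 1 UMI of each gene after thinning to 10000 UMIs per well, in percent, one point per library (10 at e15.5 and 6 at p1) with the mean as a bar. *Gfra2* rises from a mean of 5.99% to 44.3% and *Gfra3* falls from 33.9% to 5.13%, while *Ntrk3* stays near 100% at both ages.

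Combinations of the 7 receptors in single proprioceptor-like wells were read from the same thinned counts. At e15.5 *Ntrk3* with *Ngfr* alone made up 148 of 274 wells (54.0%, exact 95% binomial interval 47.9 to 60.0), *Ntrk3* with *Ngfr* and *Gfra3* 65 wells (23.7%), and *Ntrk3* with *Ngfr* and *Ret* 18 wells (6.57%). At p1 *Ntrk3* with *Ngfr* was found in 105 of 277 wells (37.9%, interval 32.2 to 43.9), *Ntrk3* with *Ngfr* and *Gfra2* in 66 wells (23.8%) and *Ntrk3* alone in 39 wells (14.1%), against 2 wells with *Ntrk3* alone at e15.5. A receptor counted as absent when no UMI of it was left after thinning, so these combinations depend on depth. Before thinning, *Ngfr* was found with *Gfra3* in 212 of the 274 wells of e15.5. At p1 it was then found with *Gfra2* in 202 and with *Ntrk3* in 257 of the 277 wells. Intervals cover counting error within the pooled wells only.
Over libraries, the triple with *Gfra3* went from 27.9% ± 13.6 to 2.14% ± 1.16 of wells (exact permutation p = 0.00025) and the triple with *Gfra2* from 4.17% ± 4.27 to 31.0% ± 23.3 (exact permutation p = 0.0005). The 3 combinations tested were the most frequent in these same wells by the mean share of both ages. Each triple entered mainly through the age in which it was frequent, so its p-value describes a combination chosen from these data. *Ntrk3* was found in nearly every well and *Ngfr* in most, so the triples in large part repeat the shares of *Gfra3* and *Gfra2* given above. They are not separate support for a change of combinations. The p1 mean of the *Gfra2* triple leaned on library 3, at 75% of wells. When single libraries were left out, its difference ran from 18.0 to 30.9 percentage points. *Ntrk3* with *Ngfr* alone went from 49.3% ± 11.7 to 35.5% ± 7.94 (exact permutation p = 0.0222), a difference of -13.8 percentage points that no longer passed 0.05 without p1 library 3 or 6 (p = 0.0579 and 0.0553 by the exact test), at 20000 UMIs (-5.89, exact p = 0.208) or with glial wells kept (-9.99, exact p = 0.114), and that turned to 4.74 without thinning. Altogether 17 combinations were seen at e15.5 and 22 at p1, and wells with at least 3 of the 7 receptors made up 43.4% and 40.4%.

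**Figure D4:**
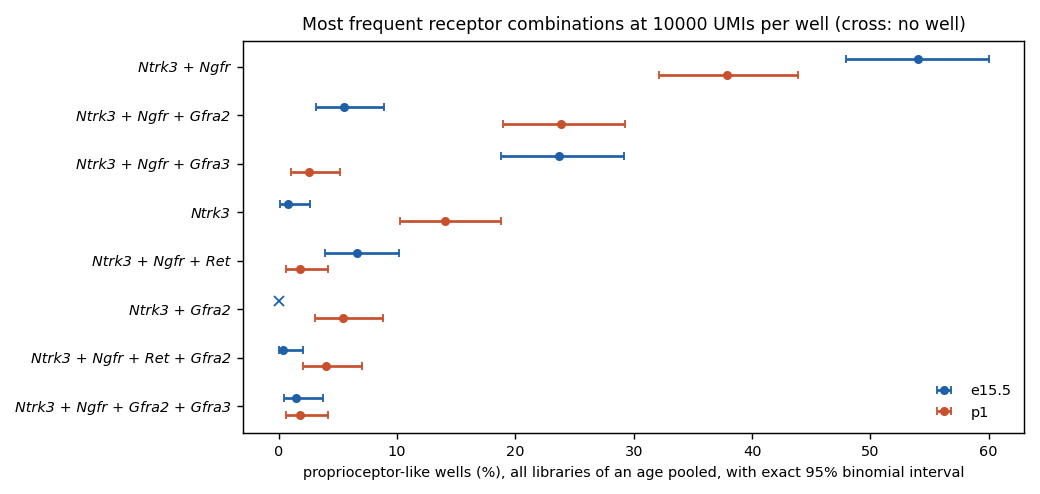
The 8 most frequent receptor combinations in proprioceptor-like wells at 10000 UMIs per well, as percent of the 274 wells of e15.5 and the 277 wells of p1 pooled over libraries, with exact 95% binomial intervals. The combination of *Ntrk3* and *Ngfr* with *Gfra3* is frequent at e15.5 (23.7%) and that with *Gfra2* at p1 (23.8%), and a cross marks a combination found in no well of that age.

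Pairs of receptors were set beside the number of wells expected from both shares within each library. At e15.5 *Gfra2* and *Gfra3* were found together in 5 wells, with 5.37 expected, and at p1 in 6 wells, with 6.07 expected. *Ret* was found with its co-receptor *Gfra2* in 2 wells at e15.5, with 2.22 expected, and in 15 wells at p1, with 7.86 expected. The p1 number was above expectation in 4 of 6 libraries, and without library 2 it was 5 wells with 3.46 expected. *Ret* with *Gfra3* was found in 6 wells at e15.5 with 7.78 expected and in 0 wells at p1 with 1.06 expected. *Bdnf* with *Gfra3* was found in 38 wells at e15.5 with 28.9 expected, above expectation in 8 of 10 libraries, and in 7 wells at p1 with 9.21 expected.
A few proprioceptor-like wells carried kinases other than TrkC at high levels. *Ret* reached 100 CPM in 11 wells of 5 libraries at e15.5, with *Ntrk3* at a median of 1633 CPM against 1766 CPM in the other wells. At p1 *Ret* reached 100 CPM in 6 wells, 5 of them in library 2, with *Ntrk3* at a median of 167 CPM against 877 CPM in the other wells. The mechanoreceptor markers summed to a median of 18.3 CPM in the 11 e15.5 wells, against 0 over all proprioceptor-like wells of that age. They summed to a median of 464 CPM in the 6 p1 wells, against 61.8 CPM over all proprioceptor-like wells of p1. In 3 of these p1 wells, all of library 2, *Ntrk2* was also at 100 CPM or more, at 250, 576 and 668 CPM, beside *Ret* at 711, 1198 and 593 CPM and *Ntrk3* at 115, 0 and 24.7 CPM, and 2 of the 3 lay within a factor of 1.5 of a class limit.

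The second question was how these genes separate proprioceptor-like cells from the other sensory neurons at e15.5. *Ntrk3* was higher in proprioceptor-like wells, and *Ntrk2*, *Ret*, *Gfra1*, *Gfra2* and *Ngfr* were lower. The comparison rested on 10 library sums against 4 (of 10, 6, 7 and 5 wells in libraries 1, 3, 9 and 10), in edgeR's quasi-likelihood test over 12996 genes, of which 15.9% were called (8.14% higher and 7.72% lower in proprioceptor-like wells). Of the 8 genes tested, 1 was higher and 5 were lower.
*Ntrk3* was at 98.6, 249, 263 and 1336 CPM in the 4 sums, the last in library 10 and inside the range of proprioceptor-like p1 libraries but below every e15.5 proprioceptor-like sum. Its log2 fold change was 1.85 ± 0.38 (SE, edgeR adjusted p = 0.000732), 3.08 without library 10 and 2.49 with the library as a block, and the Wald test of DESeq2 gave *Ntrk3* no adjusted p.
*Ntrk2* was at 331, 987, 285 and 2.20 CPM, so that library 10 alone matched the proprioceptor-like level (log2 fold change -6.31 ± 0.64, -5.38 without library 3 and -7.38 without library 8). *Ret* was at 168, 16.7, 1667 and 448 CPM (log2 fold change -5.50 ± 0.69, -4.20 without library 9), and *Gfra1* at 19.7, 3.04, 174 and 94.7 CPM (-5.08 ± 0.63, -4.18 without library 9 and -5.73 without library 8). For both genes library 3 lay within the range of the proprioceptor-like libraries. *Gfra2* was at 44.7, 15.2, 118 and 2.20 CPM, overlapping the proprioceptor-like libraries (-2.57 ± 0.58, adjusted p = 0.00163, -3.30 without library 10), and *Ngfr* at 507, 928, 2415 and 1626 CPM (-1.45 ± 0.32, adjusted p = 0.00142), and both calls were lost without library 9 (adjusted p = 0.0858 and 0.0518 by edgeR).
*Gfra3* was at 94.6, 54.7, 14.2 and 30.8 CPM and *Bdnf* at 34.2, 33.4, 100 and 209 CPM, and neither passed the test (-0.14 ± 0.40 and -0.64 ± 0.33), although without library 3 *Bdnf* was called lower (-0.90, edgeR adjusted p = 0.0497). *Ntf3* was at 0, 0, 18.9 and 81.5 CPM in these sums and was not tested.
With at least 10 wells per sum, which left library 1 as the only other sensory-neuron-like sum, 1 gene (*Ntrk3*, 4.22) was higher and 2 (*Ntrk2* and *Ret*) were lower, and *Gfra1* (-3.03, edgeR adjusted p = 0.157), *Gfra2* and *Ngfr* lost their calls.

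The single wells show how the receptors divide among the other sensory neurons. Of the 38 e15.5 wells, 5 held *Ntrk2* at 100 CPM or more and no *Ret* at that level, 14 held *Ret* without *Ntrk2*, 0 held both, 5 held neither but *Ntrk3*, and 14 held none of the 3. The cutoff was chosen with the values in view. At 50 CPM the counts were 5, 15, 1, 8 and 9, and at 200 CPM 5, 13, 0, 4 and 16.
In the 5 *Ntrk2* wells, from 4 libraries, *Ntrk2* ran from 1301 through a median of 1881 to 2084 CPM, *Ret* was at most 8.87 CPM and the nociceptor markers summed to at most 43.7 CPM. All 5 also held *Ntrk3*, at 106 to 541 CPM, and *Ngfr*, at 982 to 1485 CPM. TrkB-expressing sensory neurons are known as low-threshold mechanoreceptors.
In the 14 *Ret* wells, from 5 libraries, *Ret* ran from 122 through a median of 1378 to 2823 CPM and *Ntrk2* was at most 50.9 CPM. *Gfra1* was at 100 CPM or more in 8 of them and *Gfra2* in 4, and *Ngfr* ran from 334 to 4188 CPM. *Ntrk3* was at 100 CPM or more in 9 of them and reached 505 CPM, so that *Ret* and *Ntrk3* were not exclusive. Nociceptor markers summed to between 228 and 2867 CPM in these wells, so that they spanned a wide range of this measure. Mechanoreceptor markers summed to between 0 and 738 CPM, with a median of 264 CPM. In the 5 *Ntrk3* wells, from 4 libraries, *Ntrk3* ran from 184 through a median of 1090 to 2515 CPM. The lowest value was 2 UMIs in a well of 10885 UMIs, whose nociceptor markers summed to 1102 CPM. At a cutoff of 200 CPM the group was 4 wells from 3 libraries. These held *Ntrk3* at 1049 CPM or more and nociceptor markers at 22.3 to 375 CPM. High *Ntrk3* was thus not limited to the proprioceptor-like class. In library 10 single wells at 2515 and 1946 CPM held 451 and 732 of the 1214 *Ntrk3* UMIs of its sum. Their proprioceptor markers summed to 151 and 202 CPM. The 14 wells with none of the 3 kinases had nociceptor markers between 626 and 2573 CPM, with *Ngfr* at a median of 234 CPM and *Gfra3* at a median of 54.0 CPM.
At p1 only 4 such wells were found. In 2 of them *Ntrk2* and *Ret* were both above 100 CPM, *Ntrk2* at 398 and 1004 CPM. Both came from library 2 and lay within a factor of 1.5 of a class limit. Of the others, 1, also near a limit, held *Ntrk2* at 1878 CPM and 1 held *Ret* at 1564 CPM.

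**Figure D5:**
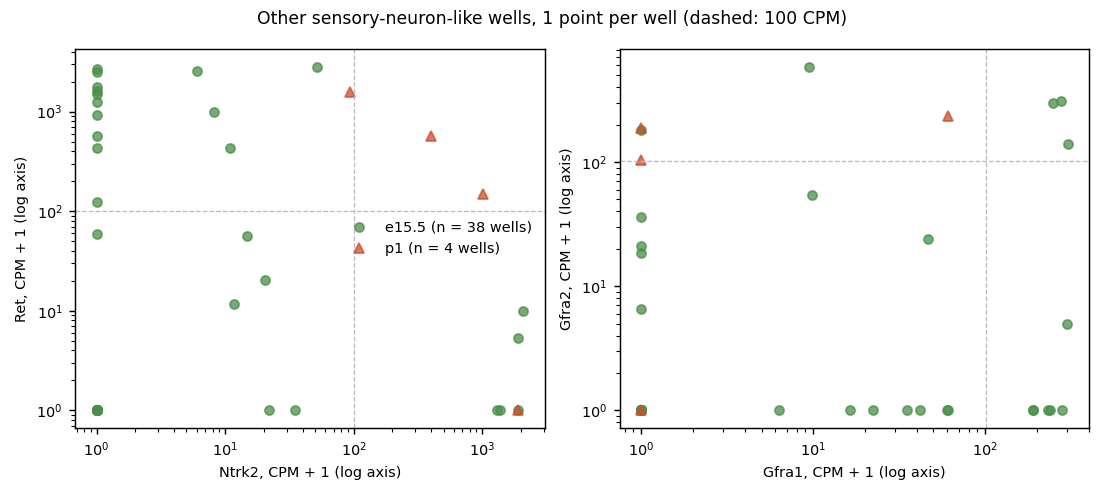
*Ret* against *Ntrk2* (left) and *Gfra2* against *Gfra1* (right) in single other sensory-neuron-like wells, as CPM + 1 on log axes, 38 wells of e15.5 (circles) and 4 of p1 (triangles), with dashed lines at 100 CPM. No e15.5 well lies above 100 CPM for both *Ntrk2* and *Ret*, whereas 2 of the 4 p1 wells do, both from library 2 and near a class limit.

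Against connective-tissue-like wells of the same libraries (9 sums, with neuron markers summing to between 138 and 343 CPM), 80.1% of the 12996 genes were called. *Ntrk3* (log2 fold change 4.03 ± 0.32), *Gfra3* (3.84 ± 0.45), *Ngfr* (1.88 ± 0.28) and *Bdnf* (1.68 ± 0.30) were higher in proprioceptor-like wells, 4 of 8 genes tested with a background of 40.5%. *Ntrk2* (-3.91 ± 0.59, -4.90 without library 8) and *Gfra1* (-3.53 ± 0.58) were lower, 2 of 8 with a background of 39.6%. *Ntrk2* was at 68.1 ± 31.6 CPM (SD, n = 9) and *Gfra1* at 26.7 ± 12.8 CPM in the connective-tissue-like sums, with no overlap with the proprioceptor-like sums for either gene. *Gfra2* (-0.83 ± 0.51, adjusted p = 0.138) and *Ret* (0.82 ± 0.83, adjusted p = 0.368) did not pass, but *Gfra2* was called lower with the library as a block (-1.40, edgeR adjusted p = 0.0287), without library 9 or 10 (-1.19 and -1.22) and by the Wald test of DESeq2 (-1.17). Scaling by the size factors of DESeq2 shifted the median of all genes from 0.01 to -0.10 on the log2 scale and kept the direction and the call of each of the 8 genes.
Wells with glial transcripts differed from the other proprioceptor-like wells in few of the genes. At e15.5 *Gfra1* was also called higher (log2 fold change 2.36 ± 0.76, adjusted p = 0.0444), but the call was lost without library 2, 4, 5, 6 or 7 and with the library as a block (adjusted p = 0.0704). At p1 *Ntrk2* was higher (2.24 ± 0.48, adjusted p = 0.0134, background 2.19%), at 30.4 ± 13.5 CPM (SD, n = 5) against 5.05 ± 6.24 CPM (n = 6), and was found in 46 of 77 wells against 46 of 277, a call that was lost without library 1, 4 or 6 and a log2 fold change that was 3.39 without library 2. *Ntrk2* at e15.5 was at 10.01 ± 4.25 CPM in wells with glial transcripts (n = 6) and was not called (0.84 ± 0.98).

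Of the 53 further pathway genes 43 were tested between proprioceptor-like and other sensory-neuron-like wells, 5 higher and 10 lower in proprioceptor-like wells, where 8.14% and 7.72% of all genes were called. *Gfra4* was higher (1.03 ± 0.29, adjusted p = 0.0130), at 26.1 ± 5.32 CPM against 12.7 ± 2.49 CPM (SD, n = 10 and 4), as were the sortilin relatives *Sorcs2* (3.89 ± 0.39) and *Sorcs1* (2.42 ± 0.47), the phosphatase *Dusp4* (2.44 ± 0.73) and *Sdc3* (1.00 ± 0.20). *Islr2*, a membrane protein that modulates Trk and RET receptors (-6.65 ± 0.69), the ETS factors *Etv5* (-4.32 ± 0.40) and *Etv4* (-3.64 ± 0.58), which GDNF and neurotrophin signalling is known to induce, the adaptor *Gab1* (-3.16 ± 0.36) and the sortilin relative *Sorl1* (-2.18 ± 0.33) had the largest decreases. *Sort1* was not called (0.15 ± 0.21).
Against connective-tissue-like wells 20 of the 43 were higher and 17 lower in proprioceptor-like wells, near the 40.5% and 39.6% of all genes. The adaptors *Dok4* (3.99 ± 0.15), *Shc2* (3.97 ± 0.16) and *Frs3* (2.55 ± 0.39), the neurotrophin-induced secreted gene *Vgf* (3.81 ± 0.52) and *Sorcs1* (2.52 ± 0.32) had the largest increases, and *Gfra4* (0.63 ± 0.20) and *Sort1* (0.82 ± 0.16) were also higher. *Lrig3* (-7.07 ± 0.38) and *Lrig1* (-6.62 ± 0.52), of which the latter restrains RET and other receptor kinases, the early-response genes *Egr1* (-6.45 ± 0.39) and *Fos* (-5.47 ± 0.31) and *Spry1* (-5.17 ± 0.27) had the largest decreases. In wells with glial transcripts 10 of 43 were higher at e15.5 (8.79% of all genes), *Islr2* (4.16 ± 0.76), *Egr1* (3.27 ± 0.37), *Lrig1* (3.14 ± 0.88) and *Lrig3* (2.63 ± 0.71) among them, and 3 of 36 at p1 (2.19% of all genes), *Dusp6* (2.83 ± 0.32), *Egr1* (2.72 ± 0.19) and *Fos* (2.22 ± 0.14), and 0 were lower at either age.
Across the 29 sums of e15.5 libraries and classes, the genes whose log2 CPM ran most like that of each of the 9 were *Hs3st2* and *Tnks* for *Ntrk3* (Pearson r = 0.97 and 0.96), *Frmpd1*, *Rap1gap2* and *Tsg101* for *Gfra3* (0.94 for each), *Klf7*, *Bicd2* and *Metap1* for *Ngfr* (0.94, 0.93 and 0.92) and *Pfdn2*, *Dpp3* and *Relch* for *Bdnf* (0.90, 0.89 and 0.88). The most alike genes were *Fst*, *Ntng1* and *Sh3bp4* for *Ntrk2* (0.88, 0.86 and 0.85) and *Sytl2*, *Ptgir* and *Gm7271* for *Ret* (0.86, 0.84 and 0.82). For *Gfra1* they were *Nfia*, *Maf* and *Nrp1* (0.85, 0.84 and 0.83). *Maf*, on the list of mechanoreceptor markers, was at 336 CPM in connective-tissue-like wells of e15.5. It was at 255 CPM in other sensory-neuron-like and 12.5 CPM in proprioceptor-like wells. *Fam173a*, *Phgdh* and *Hdac4* for *Gfra2* (0.69, 0.67 and 0.67) and *Hsph1*, *Dcbld2* and *Cotl1* for *Ntf3* (0.67, 0.65 and 0.62) were less alike. The sums share libraries and differ in class and depth.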

How the data were processed

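Single cells of mouse dorsal root ganglia were profiled by CEL-Seq2, 96 wells to a library, in 10 libraries of e15.5 and 6 of p1. The authors deposited raw UMI counts per gene and well, made with scruff on GRCm38 with GENCODE annotation, and did not normalise them. Wells with at least 10000 UMIs were classed by summed CPM of marker genes, none of them among the 9 genes described. Connective-tissue-like wells held at least 5000 CPM of their markers, proprioceptor-like wells at least 1500 CPM of neuron and 700 CPM of proprioceptor markers, other sensory-neuron-like wells at least 3000 CPM of neuron markers, and 400 CPM of glial markers set wells with glial transcripts apart. These limits were chosen after the marker distributions had been seen. Wells holding 2 cells were not called apart from these limits, and cell barcodes shared between libraries were not counted, because wells carry numbers.

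Counts were summed per library and class (at least 5 wells) and tested with edgeR 4.0.16 (TMM, filterByExpr, quasi-likelihood test, Benjamini-Hochberg adjustment over all genes tested, threshold 0.05) in R 4.3.3, with DESeq2 1.42.0 as an alternative. Shares of wells were compared after thinning to 10000 UMIs by exact two-sided permutation of libraries (scipy 1.17.1). Tested on simulated data, between 95% and 100% of 200 genes changed 4-fold were recovered in the 4 comparisons simulated, and 4.35% (age), 9.52% (other sensory neurons), 6.98% (connective tissue) and 7.69% (glial transcripts at p1) of the calls were false. The simulation drew all sums independently and changed only these 200 genes, whereas 62.8% (age) and 80.1% (connective tissue) of genes were called in the data. Its rates therefore need not carry over. Class sums of the same library deviated together from their class means (median r = 0.288 at e15.5 with a lowest value of 0.0106, and 0.596 at p1 with a lowest value of 0.303), and fits with the library as a block were run beside each class comparison.

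The 9 genes, the pathway list and the marker lists were chosen with earlier results of these data known. Text names the 9 genes throughout, the ligands and receptors of the pathway list, the 5 other pathway genes called with the largest change in each direction, and the 3 genes most correlated with each of the 9 over sums with a mean of at least 5 CPM, on log2(CPM + 1). Some genes of these lists are not reported here. Intervals are exact 95% binomial intervals and, like the limit that 0 counts allow (3 counts), cover counting error only.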

Additional observations from a re-analysis of the deposited data

Results flagged for a closer look

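Among 52 sets of 4 to 10 library sums, 10 held a highest library that stood apart from the others by Dixon's criterion. The criterion flags about 1 in 20 sets of independent, normally distributed values. CPM values are bounded at 0 and the sets share libraries, so the rate to expect here is not known. Library 2 of p1 stood apart in proprioceptor-like wells for 3 genes, *Ret* at 40.9 CPM (others 6.09 to 13.9, n = 6), *Ntrk2* at 17.4 CPM (others 0 to 4.77) and *Gfra1* at 3.91 CPM (others 0 to 0.928). In e15.5 proprioceptor-like wells, library 8 held *Ntrk2* at 22.1 CPM (others 0 to 8.95, n = 10). Among other sensory-neuron-like sums of e15.5, library 10 held *Ntrk3* at 1336 CPM (others 98.6 to 263, n = 4). In wells with glial transcripts, *Ret* was at 182 CPM in library 5 of e15.5 (others 0 to 15.1, n = 6) and at 61.4 CPM in library 6 of p1 (others 2.20 to 8.93, n = 5). In e15.5 connective-tissue-like wells (n = 9), library 3 held *Bdnf* at 44.0 CPM (others 8.37 to 24.9), library 5 *Gfra3* at 13.5 CPM (others 0 to 4.52) and library 7 *Ntf3* at 8.10 CPM (others 0 to 3.24).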

How the results depend on the processing

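Of 1236 values computed under alternatives, 1141 kept their direction and call or stayed close to the value given, 40 lost and 6 gained a call, 24 moved and 25 changed sign. The age calls of *Gfra2*, *Bdnf*, *Gfra3*, *Ngfr* and *Ntrk3* were kept under every alternative run. Leaving out 1 library at a time, 7528 to 8166 genes and 5 of the 9 were called by age, 1552 to 2099 and 4 to 8 against other sensory neurons, 10046 to 10813 and 6 to 7 against connective-tissue-like wells, 893 to 1312 and 1 to 2 with against without glial transcripts at e15.5, 218 to 303 and 0 to 1 at p1, and 4 to 5 shares and 2 to 3 combinations passed. The 8 against other sensory neurons were without library 3 and the 4 without library 9.

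With at least 10 wells per sum, 948 genes and 3 of the 9 were called against other sensory neurons (*Bdnf* 0.86, *Ngfr* 0.13) and 344 genes and 0 of the 9 with against without glial transcripts at e15.5 (*Bdnf* 0.17, *Gfra3* -0.78, *Ngfr* 0.059, *Ntrk3* 0.012). In the latter 1 of the 9 was called at 20000 UMIs, without wells near a class limit, or with the replicate block. At p1 573 genes were called with no filter on low counts and 418 with the replicate block. Only 3 shares passed without thinning, and 0 of the 27 similar genes recurred over proprioceptor-like sums alone.

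Further values that changed sign, none past 0.05 under that alternative, were as follows. By age, *Ret* ran from -0.34 (without p1 library 2) to 0.73 when single libraries were left out. Against other sensory neurons, *Bdnf* was 0.069 without wells near a limit and ran from -0.97 to 0.067 (without library 10), and *Gfra3* was 0.032 with the replicate block and ran from -0.38 to 0.36 (without library 1). For glial transcripts at e15.5, *Gfra3* ran from -0.024 (without library 10) to 0.33, *Ngfr* was 0.098 under quantile filters, and *Ret* was -0.066 without wells near a limit and ran from -0.58 (without library 5) to 2.01. At p1, *Gfra2* was -0.067 without wells near a limit and ran from -0.017 (without library 5) to 0.21, *Gfra3* was -0.050 with the replicate block, and *Ret* ran from -1.37 (without library 6) to 1.36. In percentage points, *Ntrk2* changed by -3.36 and *Ntrk3* with *Ngfr* by 4.74 without thinning, both of which had passed 0.05 after it, *Ntrk3* by -0.333 at 20000 UMIs and by -0.153 (without e15.5 library 6) to 1.02 when single libraries were left out, and *Ret* by 0.259 at 20000 UMIs and 0.490 with a second seed. The cause was not tested.

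The replicate numbers of the labels did not pair e15.5 with p1 libraries (median r = -0.189 between deviations of libraries of the same number, range -0.313 to 0.192). With that replicate block 6055 genes and 5 of the 9 were called, *Gfra2* at 4.29, *Ngfr* at -0.40 and *Ntrk3* at -0.35. Depth limits *Ntf3*, with at most 3 UMIs in any library of proprioceptor-like wells, and *Ntrk2* and *Gfra1*, each at 0 UMIs in some libraries.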
